A study of Rattus norvegicus with 9 samples.

Results

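The comparison set rat cerebral cortex after ischemia and reperfusion (I/R group) against cortex of sham-operated rats (Sham group), across every transcript counted. Of the 9 libraries of the series, the 6 from the Sham and I/R groups were used, 3 in each, chosen by their labels. The animals were Sprague-Dawley males of 7–8 weeks, with 3 rats in each group. In the I/R group a wire occluded the right middle cerebral artery for 2 h (transient middle cerebral artery occlusion, tMCAO) and was then withdrawn. In the Sham group the neck vessels were separated and no wire was inserted. Both groups received saline by intraperitoneal injection and were sacrificed 24 h after tMCAO. The RNA came from cortex, in I/R at the infarct site, taken as bulk tissue in which fewer cells of a type and less RNA per cell cannot be told apart.

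Closing the middle cerebral artery stops blood flow to much of the cortex of 1 hemisphere. Neurons in the core of that territory fail within minutes to hours, and the return of blood brings oxidative stress, opening of the blood-brain barrier and entry of leukocytes, while astrocytes and microglia become reactive. Long non-coding RNA (lncRNA) are transcripts that carry no recognised protein-coding frame, and many are restricted to few tissues, the brain among them.

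The table held 44059 transcripts, of which 36488 had at least 1 count in the 6 libraries. The 40808 with a rat Ensembl identifier (beginning with ENSRNOT) are called annotated transcripts below. By the study's classes, transcripts other than predicted lncRNA comprise protein-coding RNA, known lncRNA and other non-coding RNA, so the annotated class is not mRNA alone. The other 3251, whose identifiers begin with MSTRG, were assembled from the reads and screened for lack of coding potential by the study, and are called predicted lncRNA. The study classed part of these as intronic, and whether their counts follow the surrounding gene was not tested. The files do not pair the Ensembl identifiers with gene names, and 0 of the 40808 matched the reference gene table. Gene names, protein functions and the markers that would check the labelled cortex were therefore not analysed here, only a few identifiers are given, and other transcripts are described by rank and value. Library totals were 27362658, 21691473 and 28600541 counts in Sham replicates 1, 2 and 3, and 35092422, 34054563 and 32479042 in I/R replicates 1, 2 and 3, so every I/R library was deeper than every Sham library.

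The profile of counts over transcripts shifted by more between the groups than within either of them. The size of the shift was taken as the percentage of counts that would have to be placed on other transcripts to make 1 library's profile equal to another's. Between any 2 Sham libraries it was 6.10% to 6.33%. Between 2 I/R libraries it was 10.2% to 16.0%, so the I/R rats differed from each other by more than the Sham rats did. Across the 9 pairs of 1 I/R and 1 Sham library it ran from 22.5% to 34.8%, above every within-group pair. I/R replicate 2 lay farthest from Sham, at 33.6% to 34.8%. I/R replicate 1 followed at 27.0% to 28.2%, and I/R replicate 3 was nearest at 22.5% to 23.5%, so the order of the 3 I/R rats was the same against each Sham rat. The 9 pairs share libraries and the Sham libraries were close to each other, so these orders are not independent.

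**Figure D1:**
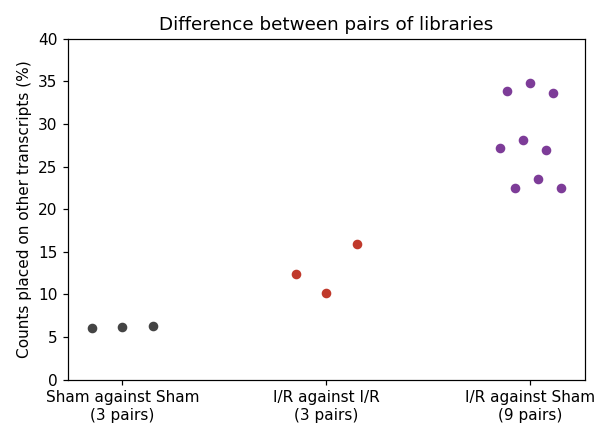
Each point is 1 pair of libraries, and the vertical axis is the percentage of counts that lie on other transcripts in 1 library than in the other. The 3 Sham pairs sit near 6%, the 3 I/R pairs between 10.2% and 16.0%, and the 9 pairs of an I/R with a Sham library between 22.5% and 34.8%.

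To ask which transcripts differed, the 25777 transcripts left after removal of low counts were compared between the groups by a quasi-likelihood test in edgeR, and a transcript was called at a Benjamini-Hochberg adjusted p under 0.05. A total of 11025 transcripts (42.8% of those tested) were called, 5773 upregulated in I/R (22.4%) and 5252 downregulated (20.4%). With p under 0.05, taken here before adjustment, and a change of more than 0.8 on the log2 scale, the total was 9083 (35.2%). For 58.5% of the transcripts tested, all 3 libraries of 1 group lay above the 3 of the other after scaling. Without any 1 library, between 7897 (without I/R replicate 1) and 11688 (without I/R replicate 3) transcripts were called. Thinning every library to the smallest total gave 10725 calls, so the lower depth of the Sham libraries changed the number little.

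The direction of change differed between the classes of transcript. Among the 22905 annotated transcripts tested, 5411 (23.6%) were upregulated in I/R and 4210 (18.4%) downregulated, against 22.4% and 20.4% over all transcripts tested. Among the 2872 predicted lncRNA tested, 362 (12.6%) were upregulated and 1042 (36.3%) downregulated. Upregulated transcripts thus made up 56.2% of the annotated calls and 25.8% of the predicted lncRNA calls. The median log2 fold change over all tested transcripts of a class was 0.08 for annotated transcripts and -0.64 for predicted lncRNA, beside 0.03 for all transcripts together. Over the alternative scalings, filters, tests, call rules and left-out libraries, with each transcript counted singly, the upregulated part of the predicted lncRNA calls ran from 23.2% to 26.8%. The classes were set side by side as counts, and the difference between them was not tested.

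Changes in predicted lncRNA were also larger. The median absolute log2 fold change over the transcripts tested was 0.63 for annotated transcripts and 1.03 for predicted lncRNA. Taken for each I/R library against the Sham mean, this median was 0.57, 0.63 and 0.46 for annotated transcripts in I/R replicates 1, 2 and 3. For predicted lncRNA it was 0.92, 1.22 and 0.78 in the same order, so it was higher than for annotated transcripts in each of the 3 rats and I/R replicate 3 was the lowest in both classes. The middle 50% of the annotated transcripts ran from -0.51 to 0.75, and that of the predicted lncRNA from -1.57 to 0.26. Annotated transcripts had the longer tail upward, with 5% of them above 2.55 and 5% below -1.60. Predicted lncRNA had the longer tail downward, with 5% below -2.88 and 5% above 1.91. Of the annotated transcripts tested, 231 had at most 3 counts in every Sham library and 28 in every I/R library. For predicted lncRNA these numbers were 21 and 10. Such transcripts passed the filter only through the other group, and they lengthen the annotated tail upward more than downward.

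Among the calls alone, the median log2 fold change was 1.29 for upregulated and -1.06 for downregulated annotated transcripts. For predicted lncRNA these medians were 1.43 and -1.72. A change beyond 2-fold was reached by 3383 of the upregulated and 2250 of the downregulated annotated transcripts, so 2028 and 1960 calls were smaller than that. Of the predicted lncRNA calls, 256 upregulated and 847 downregulated transcripts passed 2-fold, the latter 29.5% of all predicted lncRNA tested against 9.82% for annotated transcripts. A fitted log2 fold change above 4 was found for 433 upregulated annotated transcripts and 38 predicted lncRNA. In 207 and 21 of these, every Sham library had at most 3 counts, and the size of such a fitted value depends on edgeR's prior count.

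**Figure D2:**
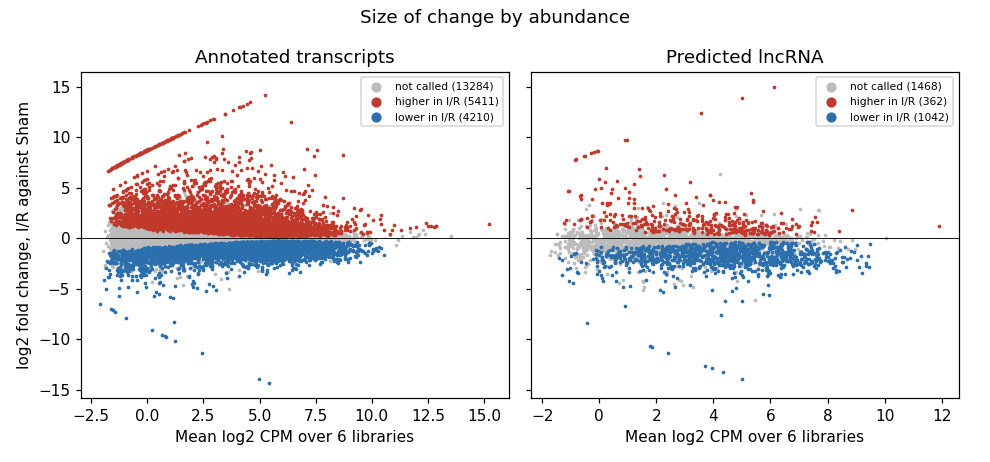
Each point is 1 tested transcript, with its mean abundance over the 6 libraries (horizontal, log2 CPM, the count scaled to one fixed library total after TMM factors) and its log2 fold change in I/R against Sham (vertical), for annotated transcripts on the left and predicted lncRNA on the right. Red points (5411 and 362) were upregulated and blue points (4210 and 1042) downregulated by edgeR, with the adjusted p under 0.05. The straight upper edge in the left panel is made of transcripts with few or no counts in Sham, whose fitted values depend on the prior count.

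The balance of up and down changed with abundance. Transcripts were grouped by edgeR's log2 of the average CPM over the 6 libraries. The group with the higher level weighs more in this value, so the class of a transcript is not independent of its change. Among annotated transcripts below 0 on this scale, 13.8% were upregulated and 9.46% downregulated. The upregulated share reached 28.8% between 4 and 6 and was 24.6% at 8 and above, whereas the downregulated share rose through every class of abundance to 46.3% of the 419 transcripts at 8 and above. Annotated transcripts of low and middle abundance were thus more often upregulated, and those above a log2 CPM of 6 more often downregulated. Their median log2 fold change moved in step, from 0.18 in the lowest class to -0.35 in the highest.

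Predicted lncRNA showed the downward part of this pattern at lower abundance and to a greater extent. Below a log2 CPM of 0, 10.04% were upregulated and 9.27% downregulated. The downregulated share was 23.3% between 0 and 2, 34.4% between 2 and 4, 46.7% between 4 and 6, and 60.2% between 6 and 8. At 8 and above it was 37 of 49 predicted lncRNA (75.5%), with 3 upregulated. The upregulated share never exceeded 15.1%. In each of the classes above 0, a larger share of predicted lncRNA than of annotated transcripts was downregulated; the difference between the classes was thus also present among transcripts of like abundance. The precision of the test also grows with abundance, and the total share called rose from 23.2% to 70.9% of annotated transcripts and from 19.3% to 81.6% of predicted lncRNA.

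**Figure D3:**
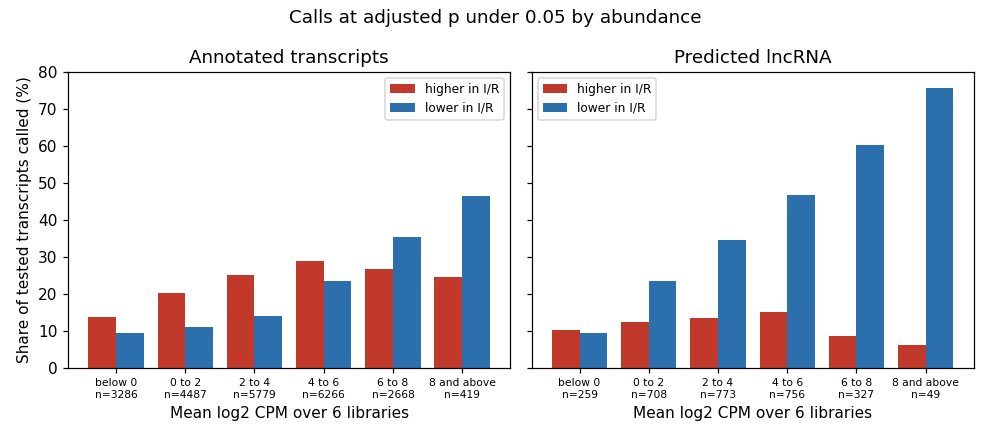
Bars give the percentage of tested transcripts called by edgeR as upregulated (red) or downregulated (blue) in I/R, with the number tested under each pair. Classes are of edgeR's log2 of the average CPM over the 6 libraries, written as mean log2 CPM on the axis. Downregulated bars climb with abundance in both panels, to 46.3% for annotated transcripts and 75.5% for predicted lncRNA.

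Size of change did not grow with abundance in annotated transcripts. Their median absolute log2 fold change was 0.89 in the lowest class, fell to 0.50 between 4 and 6, and was 0.75 at 8 and above. In predicted lncRNA it was 0.93 in the lowest class, 1.05 between 4 and 6, 1.33 between 6 and 8 and 1.82 at 8 and above. The most abundant predicted lncRNA therefore had the largest typical change of any class of transcript in the comparison.

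The typical spread between rats was wider in I/R than in Sham. Taking the SD of log2(CPM + 0.5) over the 3 rats of a group, the median over annotated transcripts was 0.17 in Sham and 0.24 in I/R, and over predicted lncRNA 0.21 and 0.37. The gap was greatest for abundant transcripts, where counting noise is small. At a log2 CPM of 8 and above the median SD was 0.07 in Sham and 0.25 in I/R for annotated transcripts, and the SD was higher in I/R for 85.4% of them. For predicted lncRNA of that abundance it was 0.10 in Sham and 0.62 in I/R, higher in I/R for 91.8%. In the lowest class the 2 groups had like spread, with medians of 0.26 and 0.27 for annotated transcripts. Annotated transcripts with an SD above 1 were more numerous in Sham, 708 (3.09%) against 637 in I/R (2.78%), while predicted lncRNA with such an SD numbered 250 in Sham (8.70%) and 336 in I/R (11.7%).

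The I/R rats also differed from each other in an ordered way. I/R replicate 2 had the highest level of the 3 rats in 56.6% of the upregulated transcripts and the lowest in 60.5% of the downregulated ones. I/R replicate 3 held these places in 10.9% and 13.2%. Each rat had entered the fit that made these calls. To measure each rat on calls it had not entered, the fit was repeated without it and its levels were read against the Sham mean. Among the 6012 transcripts upregulated in a fit without I/R replicate 3, its own median log2 ratio was 0.79 against 1.18 for the other 2 rats, and among the 5676 downregulated it was -0.77 against -1.13. Without I/R replicate 2 these medians were 1.32 against 1.16 upward and -1.29 against -1.06 downward, and without I/R replicate 1 they were 1.27 against 1.27 and -1.20 against -1.19. All these ratios were taken against the same 3 Sham libraries, which also entered the fits. The other 2 rats of each fit selected its calls, which tilts the comparison toward a smaller change in the rat left out.

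A small set of abundant transcripts took much of the added counts. Counts were expressed as a share of the library total, in CPM without further scaling, and the mean share in I/R minus that in Sham gave each transcript's gain or loss. Since shares sum to the same total in every library, gains and losses are equal, and each came to 27.2% of all counts. Of the gain, 50% lay on 159 transcripts, while 50% of the loss was spread over 570. The 10 largest gains made up 27.0% of the gain and the 100 largest 45.8%. The 10 largest losses made up 3.73% of the loss and the 100 largest 20.03%. The number that carried 50% of the gain was 96 without I/R replicate 1 and 271 without I/R replicate 2, and between 549 and 586 transcripts carried 50% of the loss with any 1 library left out. Against the Sham mean, 50% of the gain of a single rat lay on 332, 60 and 200 transcripts in I/R replicates 1, 2 and 3, and 50% of its loss on 557, 621 and 559. The loss was thus broad in every rat, whereas the narrowness of the gain differed between rats and was greatest in I/R replicate 2.

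**Figure D4:**
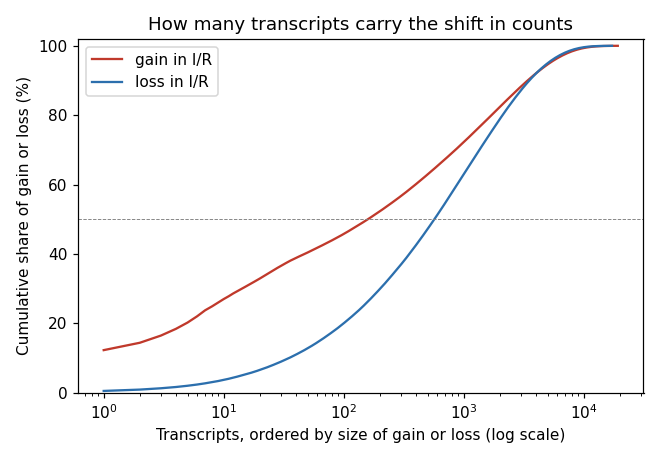
The curves add up the gain (red) and the loss (blue) in share of counts from Sham to I/R over transcripts ordered by size (horizontal, log scale), as a percentage of the total gain or loss. The gain curve starts at 12.3% with 1 transcript and passes the dashed line at 50% with 159, and the loss curve passes it with 570.

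Annotated transcripts made up 94.6% of the gain and 75.5% of the loss. Predicted lncRNA made up 5.36% of the gain and 24.5% of the loss. In each I/R rat alone, predicted lncRNA held between 23.6% and 25.9% of the loss and between 5.10% and 6.11% of the gain. Of the 570 transcripts that carried 50% of the loss, 158 were predicted lncRNA. Of the 159 that carried 50% of the gain, 8 were predicted lncRNA. Of all 570 and 159, whatever their class, 530 and 140 were called, against 42.8% of all transcripts tested, in the same libraries that ranked them.

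Gains and losses came from different ranges of abundance. Transcripts above 1000 CPM in the group where they were higher numbered 41 on the side of the gain and 33 on the side of the loss, and carried 38.0% and 8.13% of it. Those between 100 and 1000 carried 30.004% of the gain, with 942 transcripts, and 61.6% of the loss, with 1608. Those between 10 and 100 carried like shares of both, 28.2% and 27.5%. Those between 1 and 10 carried 3.34% of the gain and 2.49% of the loss, and those under 1 carried 0.367% and 0.266%. Among the transcripts that carried 50% of the loss, 139 of 570 had a fitted change within 2-fold and 134 one beyond 4-fold. The latter comprised 89 predicted lncRNA and 45 annotated transcripts.

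The most abundant transcripts as a group gained in share. The 100 highest by mean over the 6 libraries took 17.5%, 17.0% and 17.5% of the counts in Sham replicates 1, 2 and 3, and 21.99%, 29.7% and 23.2% in I/R replicates 1, 2 and 3. The groups did not overlap, with a mean of 17.3% ± 0.312 in Sham against 24.97% ± 4.18 in I/R (SD, n = 3 rats each, 2-sided exact permutation test, p = 0.1, the smallest that 3 rats against 3 allow). This gain was held by the very top. The 10 highest took 6.35% ± 0.107 in Sham and 13.5% ± 3.58 in I/R (SD, n = 3 each, exact permutation test, p = 0.1), a difference of 7.12 percentage points against 7.62 for the 100 highest. For the 1000 highest the difference was 2.29 percentage points, less than the SD of 2.62 among the I/R rats (p = 0.3, exact permutation test). Of these 10 transcripts, all annotated, 7 were upregulated and 0 downregulated, where 22.4% and 20.4% of all transcripts tested were. The 7 include a pair with counts within 2% of each other in all 6 libraries, uncertain as 2 separate gains. Of the 100, 30 were upregulated and 40 downregulated, and of the 1000, 238 were upregulated and 465 downregulated. Upregulated transcripts were thus more numerous among the 10, and downregulated ones among the 1000, with less of a difference among the 100. The ranks came from the same 6 libraries, and a transcript high in 1 group alone could enter them. These counts of calls are therefore a description.

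Predicted lncRNA as a class lost share in every rat. They took 11.6%, 12.7% and 12.2% of the counts in Sham replicates 1, 2 and 3, and 7.25%, 5.90% and 7.72% in I/R replicates 1, 2 and 3. The difference of -5.21 percentage points was far beyond the spread within either group (exact permutation test, p = 0.1, the smallest possible). Removing the single most abundant transcript from all libraries left it at -5.08. The other gains stayed in the library totals, and how far they lower the share of predicted lncRNA was not tested. The number of predicted lncRNA with more than 3 counts differed by less than the spread among the I/R rats, at 2870 ± 15.7 in Sham and 2834 ± 70.9 in I/R after thinning to equal depth (SD, n = 3 each, exact permutation test, p = 0.7). Annotated transcripts with more than 3 counts numbered 24006 ± 126 in Sham and 24739 ± 243 in I/R after thinning (SD, n = 3 each, exact permutation test, p = 0.1), and each I/R library had more than any Sham library.

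The largest gain belonged to ENSRNOT00000050156, an annotated transcript and the most abundant of the table. It had 20407, 21762 and 21943 CPM in Sham replicates 1, 2 and 3, and 41969, 75519 and 47065 in I/R replicates 1, 2 and 3. All 3 I/R rats lay at about 2-fold the Sham level or above, with I/R replicate 2 far ahead of the others. The mean went from 21371 ± 839 (SD, n = 3) to 54851 ± 18080 (SD, n = 3), a log2 fold change of 1.38 (SE 0.33, adjusted p = 0.0172, Benjamini-Hochberg over all transcripts, edgeR quasi-likelihood test). It alone made up 12.3% of the gain, and 7.60%, 16.0% and 11.4% of the gain of I/R replicates 1, 2 and 3 taken singly. Its log2 fold change was 1.02 without I/R replicate 2. The call was lost, with an adjusted p of 0.0612 to 0.0651 in the same edgeR test, when any 1 of the Sham libraries was left out, in fits with fewer samples. The log2 fold change in these fits was 1.35 to 1.39, as large as with all libraries.

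ENSRNOT00000082705 had the second largest gain. It had 5141, 4409 and 3938 CPM in Sham replicates 1, 2 and 3, and 9082, 12003 and 9754 in I/R replicates 1, 2 and 3. The log2 fold change was 1.20 (SE 0.22, adjusted p = 0.00662, Benjamini-Hochberg over all transcripts, edgeR quasi-likelihood test), and the transcript made up 2.13% of the gain. The annotated transcript with the next largest gain had counts within 2% of its own in all 6 libraries, so that reads of these transcripts may be shared and the pair is uncertain as 2 separate gains.

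The largest loss belonged to ENSRNOT00000092445, 27th in abundance. It had 2138, 2284 and 2263 CPM in Sham replicates 1, 2 and 3, and 709, 511 and 998 in I/R replicates 1, 2 and 3. The mean in I/R was 0.332 times that in Sham, a log2 fold change of -1.60 (SE 0.23, adjusted p = 0.00318, Benjamini-Hochberg over all transcripts, edgeR quasi-likelihood test). It made up 0.547% of the loss, so no single transcript weighed on the loss as ENSRNOT00000050156 did on the gain. ENSRNOT00000019320 had 1740, 1794 and 1773 CPM in Sham replicates 1, 2 and 3, and 671, 537 and 972 in I/R replicates 1, 2 and 3. Its Sham values lay close together, and all 3 I/R values were far below them (log2 fold change -1.29, SE 0.21, adjusted p = 0.00473, same edgeR test). In both transcripts I/R replicate 2 was the lowest and I/R replicate 3 the highest of the I/R rats.

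Among predicted lncRNA, MSTRG.18555.2 had the largest gain and was 15th in abundance of the whole table. It had 2192, 2254 and 2277 CPM in Sham replicates 1, 2 and 3, and 4006, 7259 and 4794 in I/R replicates 1, 2 and 3 (log2 fold change 1.28, SE 0.27, adjusted p = 0.0122, Benjamini-Hochberg over all transcripts, edgeR quasi-likelihood test). Its order of rats was that of ENSRNOT00000050156, with I/R replicate 2 highest. It alone made up 1.14% of the gain, out of the 5.36% on all predicted lncRNA. The second, MSTRG.2024.12, had 51.9, 193 and 107 CPM in Sham replicates 1, 2 and 3, and 926, 625 and 918 in I/R replicates 1, 2 and 3. Here I/R replicate 2 was the lowest of the I/R rats (log2 fold change 2.80, SE 0.48, adjusted p = 0.00545, same edgeR test). Its locus held 12 predicted lncRNA that may share reads. Their summed level was 356 ± 33.0 CPM in Sham and 2374 ± 337 in I/R (SD, n = 3 each), a log2 fold change of 2.73 (adjusted p = 0.000325, same edgeR test on loci).

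The largest losses among predicted lncRNA were steeper in ratio than those of annotated transcripts, from lower levels in Sham. MSTRG.5610.2 had 1031, 1174 and 1470 CPM in Sham replicates 1, 2 and 3, and 204, 129 and 189 in I/R replicates 1, 2 and 3 (log2 fold change -2.83, SE 0.21, adjusted p = 0.000598, Benjamini-Hochberg over all transcripts, edgeR quasi-likelihood test). MSTRG.13941.1 had 1054, 1199 and 1000 CPM in Sham replicates 1, 2 and 3, and 109, 57.4 and 134 in I/R replicates 1, 2 and 3. Its mean in I/R was 0.0922 times that in Sham (log2 fold change -3.45, SE 0.30, adjusted p = 0.000917, same edgeR test). Among the 10 largest losses chosen by the same rule, the I/R mean was 0.0922 to 0.310 times the Sham mean for predicted lncRNA, with a median of 0.148. For the 10 such annotated transcripts it was 0.204 to 0.519 times, with a median of 0.395. The Sham means of these lists were 607 to 1225 CPM for predicted lncRNA and 1186 to 2229 CPM for annotated transcripts. Losses were ranked in CPM, and from a lower start a large loss needs a low ratio. The ranking rule thus favours lower ratios among predicted lncRNA.

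**Figure D5:**
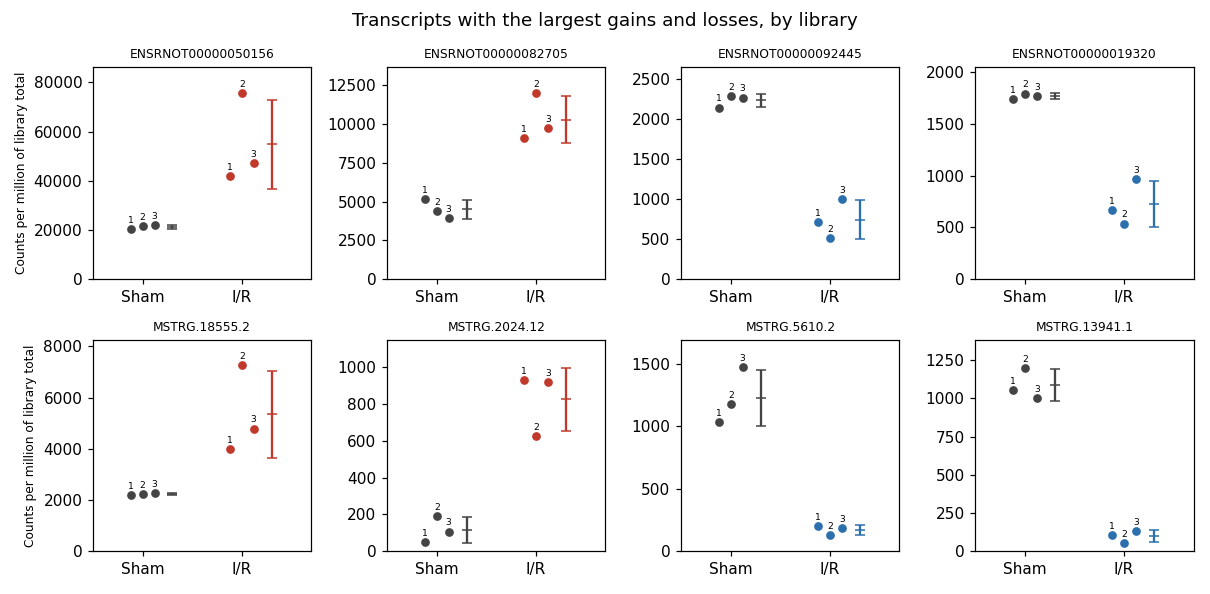
Each panel shows 1 transcript in CPM of the library total, with a numbered point for each rat and the mean ± SD beside it, for Sham (grey) and I/R (red for gains, blue for losses). In all 8 panels the groups do not overlap, which was a condition of choosing these transcripts. I/R replicate 2 is the most changed rat in all but MSTRG.2024.12.

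The largest gains and losses were ranked by a mean that includes each I/R rat, so the place of a rat among them is a description. Together the 15 largest gains took 7.22% ± 0.153 of the counts in Sham and 15.5% ± 4.11 in I/R (SD, n = 3 each), being 12.7%, 20.2% and 13.6% in I/R replicates 1, 2 and 3. Here I/R replicate 1, not I/R replicate 3, was nearest to Sham, and it was the lowest of the I/R rats in 10 of these 15 transcripts. The 15 largest losses took 2.22% ± 0.0528 in Sham and 0.787% ± 0.249 in I/R. Among the 100 largest losses, I/R replicate 2 was the lowest in 98 and I/R replicate 3 the highest in 91. Among the 100 largest gains, I/R replicate 2 was the highest in 59, I/R replicate 1 in 27 and I/R replicate 3 in 14, so the gains were less uniform than the losses.

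Some transcripts were near absent from 1 group. With at most 3 counts in every library of a group taken as the floor, 2619 annotated transcripts were at the floor in Sham alone and 1029 in I/R alone. Most had few counts elsewhere, and 695 and 142 of them were above the floor in all 3 rats of the other group. At equal depth, after thinning, these numbers were 2130 and 1374, with 508 and 237 above the floor in all 3 rats. The excess on the side of I/R was thus smaller at equal depth and kept its direction. For predicted lncRNA the numbers were 111 at the floor in Sham alone and 109 in I/R alone, and 106 and 122 after thinning. These transcripts carried little of the shift in counts. Those at the floor in Sham alone held 0.168% of the I/R counts for annotated transcripts and 0.0835% for predicted lncRNA, and those at the floor in I/R alone held 0.0406% and 0.145% of the Sham counts.

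Counts that switched on and off between rats of the same group were more frequent in predicted lncRNA. Of the annotated transcripts that reached 100 counts in a Sham library, 1.248% had at most 3 counts in another Sham library, and in I/R the share was 1.083%. Of the predicted lncRNA, 7.63% did so in Sham and 8.07% in I/R, so the share was alike in injured and uninjured cortex. With predicted lncRNA summed by locus it was 0.349% in Sham and 0.282% in I/R. The count of a locus was thus less often on in 1 rat and off in another than that of a single predicted lncRNA. A locus can have at most 3 counts only where each of its predicted lncRNA does. Summing by itself therefore tends to lower this share.

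At the level of loci the downward shift of predicted lncRNA remained. The 3251 predicted lncRNA fell into 2408 loci by their identifiers, and 2281 loci were tested in a table that kept the annotated transcripts, in which 44.3% of all features were called. Of these loci, 362 (15.9%) were upregulated and 964 (42.3%) downregulated at an adjusted p under 0.05, with a median log2 fold change of -0.56. Of the 1911 tested loci with 1 predicted lncRNA, 308 were upregulated and 776 downregulated, and of the 370 with several, 54 and 188. Only 4 loci held both an upregulated and a downregulated predicted lncRNA, and as sums 1 of these 4 was downregulated and 3 were not called.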

How the data were processed

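Total RNA of cortex was made into libraries with a total RNA kit by the authors and sequenced. The deposited table gives raw counts, as whole numbers for each transcript in each library, neither normalized nor pooled. The submitters' processing notes name STAR 2.5.3a, StringTie 1.3.1 and the rat build rn6, while the study's methods name Trimmomatic, a mouse genome build and CLC Genomics Workbench. How reads shared between transcripts were divided is not given in the sources used here, so transcripts of 1 locus and near-identical copies are uncertain singly. No transcript lengths were given, and levels of different transcripts are counts, not compared per length.

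Counts were analysed in R 4.3.3 with edgeR 4.0.16: filterByExpr at its defaults (10 counts in enough libraries, 15 in total), TMM scaling and a quasi-likelihood fit of the 6 libraries without covariates. Calls used a Benjamini-Hochberg adjusted p under 0.05 over all transcripts tested. The SE was obtained from the log2 fold change and the F statistic, as their quotient after taking the root of F. Values per library were compared by 2-sided exact permutation tests. At most 3 counts was taken as the floor. Intervals of counting error were not computed. Named transcripts are the 2 largest gains and 2 largest losses of each class among those called without overlap between groups. Alternatives were RLE and total-count scaling, other filters, DESeq2 1.42.0, limma-voom (limma 3.58.1), thinning, the replicate number as a block, other call rules, sums by locus, and leaving out each library. The scripts were tested on simulated data. The comparison, lists and tests were chosen with earlier results of these data known. Deviations of same-numbered Sham and I/R libraries from their group means correlated at -0.01, -0.04 and -0.06, and those of unlike-numbered libraries at -0.05 to 0.07. The labels do not say whether the numbers pair the rats, and correlations over so few libraries cannot decide it. The I/R + DEX libraries were not used here.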

Additional observations from a re-analysis of the deposited data

How the results depend on the processing

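The 8 named transcripts and the differences in the share of counts on predicted lncRNA and on the 100 most abundant transcripts kept their direction under each alternative run for them. The named transcripts were chosen without overlap between the groups, and the 2 shares did not overlap either. Leaving out 1 library could therefore not by itself reverse these directions. Spread, distances and on and off counts between rats were not recomputed under these alternatives. The count of predicted lncRNA at the floor in 1 group alone turned, from 111 in Sham and 109 in I/R to 106 and 122 after thinning. Requiring a log2 fold change beyond 1 beside an adjusted p under 0.05 lowered the calls by construction, to 6736 transcripts in all, of which 3383 were annotated and upregulated and 2250 annotated and downregulated. The number of transcripts that carried 50% of the gain ran from 96 to 271 with 1 library left out, the ends being without I/R replicates 1 and 2, and the cause was not tested. Whether the replicate numbers pair the rats is not known. With the replicate number as a block 8068 transcripts were called, and ENSRNOT00000050156 had a log2 fold change of 1.31 and an adjusted p of 0.0822 (edgeR's quasi-likelihood test). With 1 library left out, the calls ran from 7897 to 11688, with fewer samples in each fit. DESeq2 called 12389 and limma-voom 13762, and other scalings and filters between 10263 and 11009. With 3 rats a group, values given for single libraries cannot be below an exact p of 0.1. Transcripts under 10 counts are limited by depth, which was lowest in Sham.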

Other observations

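Among the largest gains, 2 transcripts kept a near steady ratio to the most abundant one. ENSRNOT00000050156 itself ranged 3.70-fold between its lowest and highest library. Per 100 counts of it, MSTRG.18555.2 had 10.7, 10.4 and 10.4 counts in Sham replicates 1, 2 and 3 and 9.54, 9.61 and 10.2 in I/R replicates 1, 2 and 3, although its own level ranged 3.31-fold. The annotated transcript seventh in the gain had 17.2, 15.05 and 15.6 in Sham and 14.8, 14.8 and 14.8 in I/R. The highest of the 6 ratios was 1.13 times the lowest for MSTRG.18555.2 and 1.17 times for the other, and 1.28 to 4.08 times for the remaining 12 of the 15 largest gains. The annotated transcript second in abundance did not follow, with 51.1, 49.98 and 50.8 counts per 100 in Sham and 31.6, 17.8 and 26.3 in I/R, and a log2 fold change of 0.27 (adjusted p = 0.230, Benjamini-Hochberg over all transcripts, edgeR quasi-likelihood test). These ratios were chosen after the values were seen, points share libraries and their scaling, and no test was made.

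In all 6 libraries 14174 transcripts reached 100 counts, and 33 pairs of them differed by at most 2% in every library, and 5 of these pairs held identical counts. The 66 transcripts in such pairs took 1.77% of the counts.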
